A study of Mus musculus with 3 samples.

Results

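The 7 genes *Rbp4*, *Crabp2*, *Cyp26b1*, *Rara*, *Rarb*, *Rxra* and *Rxrg*, which handle retinoids or answer to retinoic acid, were followed by symbol through single cells sorted from the mouse medial prefrontal cortex (mPFC). They are 7 of the 14933 genes in the table of filtered cells, and all 7 have counts there. They were chosen by their measured UMI counts in these libraries, with earlier results known, so their levels are given as descriptions and not as tests. Retinol travels on the carrier protein RBP4, is oxidized inside cells to retinoic acid, and retinoic acid is handed on by cellular binding proteins such as CRABP2 or broken down by CYP26 enzymes. Retinoic acid acts through nuclear receptors, the RARs, which bind DNA as pairs with RXRs and switch target genes on or off. In the developing forebrain the meninges are a known source of retinoic acid, and RARβ and RXRγ are known as receptors of the striatum.

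The 3 libraries came from P5 mPFC of C57Bl6 mice that all carry *Rbp4-cre* and the Cre-dependent tdTomato reporter, and tdTomato+ cells were sorted by FACS. The *Tbr1* wild-type library has no conditional allele, the *Tbr1* layer5 heterozygous library has 1 floxed *Tbr1* allele and the homozygous library has 2. Cre excises exons 2 and 3 of *Tbr1*, a transcription factor of deep-layer cortical neurons. The Cre is driven from a transgene with *Rbp4* regulatory sequence in layer 5 pyramidal neurons, so one of the genes followed here also names the driver. The number of animals per library is not given in the sources used here, and with 1 library per genotype no difference between genotypes can be tested.

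The authors split their filtered cells into typical neuronal cells (1778 wild-type, 5357 heterozygous, 3935 homozygous), atypical neuronal cells (304, 107 and 462) and the cells left out of their neuronal table, called outside cells here (2873, 1398 and 1182). Typical cells gave 3670646, 10418228 and 6074494 unique molecular identifiers (UMIs) in that order, with medians of 1901, 1743 and 1375 per cell. Levels are UMIs of a gene per 1000000 UMIs of the cells (CPM), and their 95% Poisson intervals cover counting error only. The 3′ tags of *Tbr1* can lie outside the deleted exons, so its 27.5, 30.7 and 22.4 CPM in typical cells do not check the genotypes. Barcode sequences were shared between libraries by 281 of the 17396 filtered cells, and leaving these cells out moved no log2 ratio of the 7 genes outside its interval. Barcodes of at least 100 and under 500 UMIs, taken as empty droplets, give the profile of free RNA. By mural cell markers, the lowest of the marker lists compared, it makes up 22, 11.9 and 16.2% of the UMIs in typical cells. The highest lists gave 38.8% (blood) in wild-type, 14.5% (blood) in heterozygous and 24.5% (microglia) in homozygous cells. Amounts carried in or subtracted below use the mural share and would be larger at the others. Outside cells were clustered without the retinoid genes into 17 clusters, and clusters were named from marker genes.

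One sequence is shown because it is the only one of the 3 retinoic acid response element types searched that was found in the promoter windows of these genes. Windows run from 250 bases before to 50 bases after each RefSeq transcript start on GRCm38.p6, and 6 of the 7 genes have at least 1 window, with no entry for *Crabp2*. The half-site searched for was AGGTCA, with GGGTCA also accepted. The variant AGTTCA was accepted too, as was the variant GGTTCA, and direct repeats of any pair of them spaced by 1, 2 or 5 bases were sought on both strands. Repeats spaced by 5 were in 0.0974% of all 32851 windows, those spaced by 1 in 0.222% and those spaced by 2 in 0.268%. The window of *Rarb* holds a repeat spaced by 5 on the gene's own strand, between 53 and 37 bases before the start, at chr14:16575513-16575529, and the match is in capitals:
*Rarb*: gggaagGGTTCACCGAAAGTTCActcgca
No other window of the 6 genes held a repeat of any of the 3 spacings, which says only that these letters are not in those windows.

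*Rbp4* was highest in an inhibitory neuron-like cluster led by *Npy* and *Sst*, *Rxrg* in atypical neuronal cells, and *Crabp2* in meningeal fibroblast-like cells, which also gave the highest values of *Rarb*, *Cyp26b1* and *Rxra* from 20, 12 and 5 UMIs. *Cyp26b1* had 70.7% and *Rara* 50.2% of their UMIs in typical neurons, which hold 53.9% of all UMIs.

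**Figure D1:**
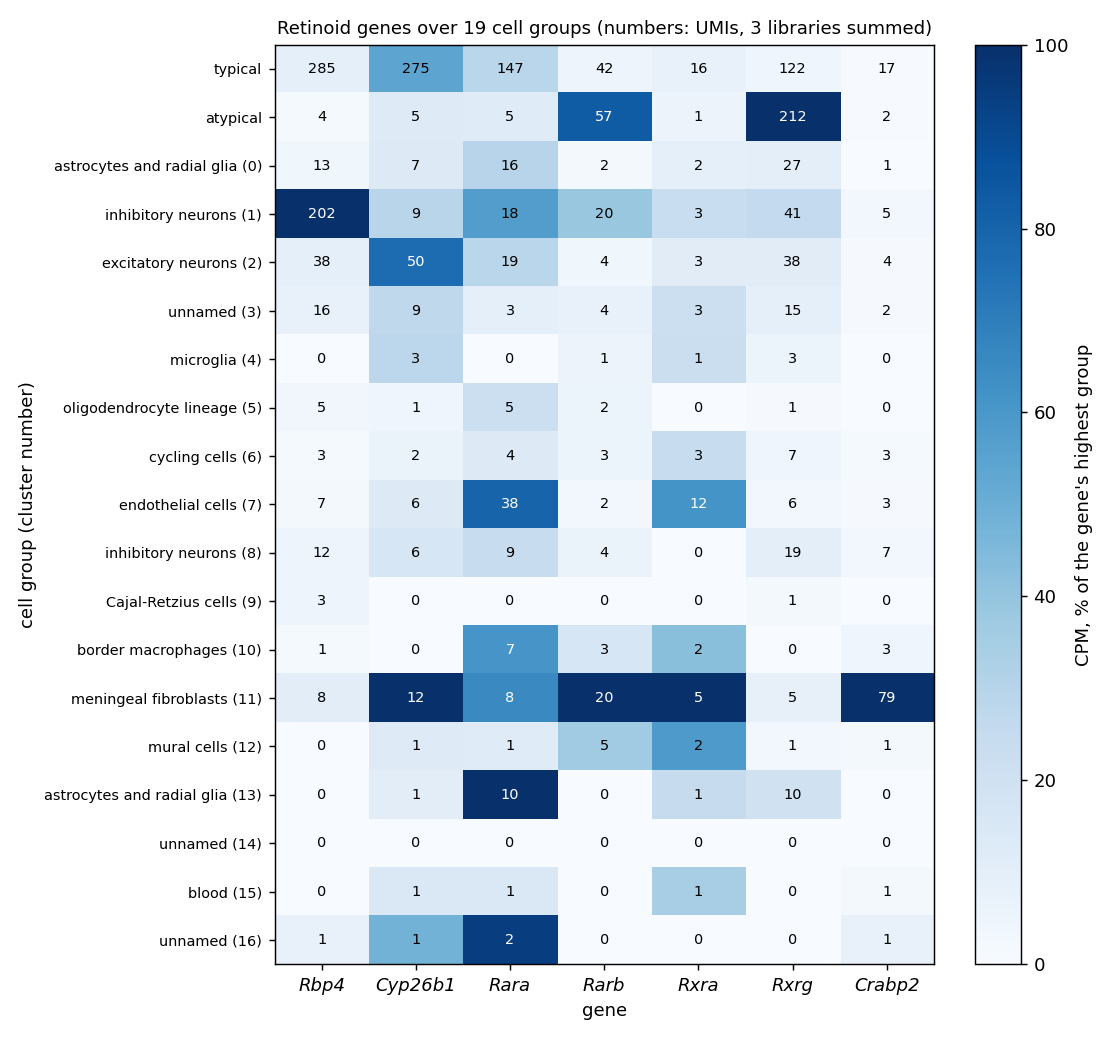
UMIs of the 7 genes (printed in each cell, summed over the 3 libraries) in 19 cell groups, with color giving the CPM of a group as a percentage of the gene's highest group. Each gene is darkest in its own highest group, which has 202 UMIs for *Rbp4* (inhibitory cluster 1), 212 for *Rxrg* (atypical cells) and 79 for *Crabp2* (meningeal cluster 11), but only 5 to 20 for *Cyp26b1*, *Rara*, *Rarb* and *Rxra*.

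*Rbp4* (ENSMUSG00000024990, chromosome 19, 38116629 to 38125281, minus strand, GRCm38) encodes the plasma carrier of retinol. In typical neurons it had 45 UMIs in wild-type, 153 in heterozygous and 87 in homozygous cells, or 12.3 (8.94 to 16.4), 14.7 (12.5 to 17.2) and 14.3 (11.5 to 17.7) CPM. The 3 intervals overlap, and no typical wild-type cell held more than 1 UMI. Empty droplets had 10.9, 22.7 and 12.7 CPM in the same order. The mural share of free RNA would carry 2.40, 2.71 and 2.05 CPM of this into typical cells. Microglia-like cells, which should lack the gene, had no *Rbp4* UMI in 140 cells, which by a floor of 3 counts allows a share of cells with a UMI of up to 2.14% and is too few to set a background level. After every cell was thinned to 1000 UMIs, 1.35% of typical cells (exact binomial interval 1.14 to 1.58%) held an *Rbp4* UMI, against 2.53% at full depth. *Rbp4* RNA was therefore sparse at this depth in the neurons that its regulatory sequence was used to label.

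The highest *Rbp4* level was in an inhibitory neuron-like cluster led by *Npy*, *Sst*, *Cort* and *Tac1* (cluster 1, 339 cells). Its 202 UMIs, 33.8% of all *Rbp4* UMIs, gave 164 CPM (142 to 188), and the next group, meningeal fibroblast-like cells, had 16.8 CPM (7.23 to 33). *Rbp4* was found in 92 of the 339 cells, 38 of them held at least 2 UMIs, and 1 cell held 17. Thinned to 1000 UMIs, the share of cells with *Rbp4* was 11.5% (8.31 to 15.4%), and at full depth 27.1%. The thinned share was 4.76, 14.6 and 16.4% in wild-type, heterozygous and homozygous cells. The meningeal level did not differ beyond counting error from excitatory neuron-like outside cells (14.7 CPM, log2 ratio 0.19, −1.12 to 1.32) or from typical cells (14.1 CPM, 0.25, −0.98 to 1.24). The second inhibitory neuron-like cluster (cluster 8, led by *Igfbpl1*, *Sp8* and *Dlx6os1*) had 12 UMIs in 740 cells.

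Within cluster 1 the wild-type library was lower than both mutant libraries. *Rbp4* had 41 UMIs in 126 wild-type cells, 87 in 103 heterozygous cells and 74 in 110 homozygous cells, or 96.1 (69.0 to 130), 208 (166 to 256) and 191 (150 to 240) CPM. The wild-type interval does not overlap the other 2, and the log2 ratio was 1.11 (0.56 to 1.69) for heterozygous over wild-type and 0.99 (0.42 to 1.58) for homozygous over wild-type. Without the cell richest in *Rbp4* of each library the ratios were 1.04 and 1.07. The intervals take each UMI as independent, and UMIs clumped within cells make them too narrow. At full depth the share of cluster 1 cells with *Rbp4* was 20.6% in wild-type, 34.0% in heterozygous and 28.2% in homozygous cells. Median depths were 2915, 4096 and 2795.5 UMIs in that order. Cells of cluster 1 with *Rbp4* differed from those without it. They were deeper, with a median of 4731 against 2781 UMIs, and per UMI over the 3 libraries they had more *Sst* (7637 against 4493 CPM, log2 ratio 0.77, 0.70 to 0.83) and more *Gad1*, which encodes a GABA-synthesizing enzyme (309 against 151 CPM, log2 ratio 1.03, 0.67 to 1.40). They had less *Npy*, a neuropeptide gene, at 2806 against 15054 CPM (log2 ratio −2.42, −2.51 to −2.34). The narrow intervals of these marker ratios count UMIs and leave out the spread between cells. In wild-type cells of cluster 1, for example, the 2432 *Sst* UMIs were in 59 of 126 cells. This direction of *Npy* was the same in each library, with 7051 against 13471 CPM in wild-type, 830 against 14721 CPM in heterozygous and 1583 against 17527 CPM in homozygous cells. *Tac1*, another neuropeptide gene, also differed among the libraries of cluster 1, at 166, 332 and 449 CPM and in 6, 22 and 22 cells. *Gad1* was at 157, 208 and 261 CPM, *Sst* at 5702, 4403 and 6771 CPM and *Npy* at 11683, 9442 and 11129 CPM in the same order. The part that the mix of interneurons in cluster 1 has in its *Rbp4* difference was not tested, and 1 library per genotype does not separate a genotype from a library.

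**Figure D2:**
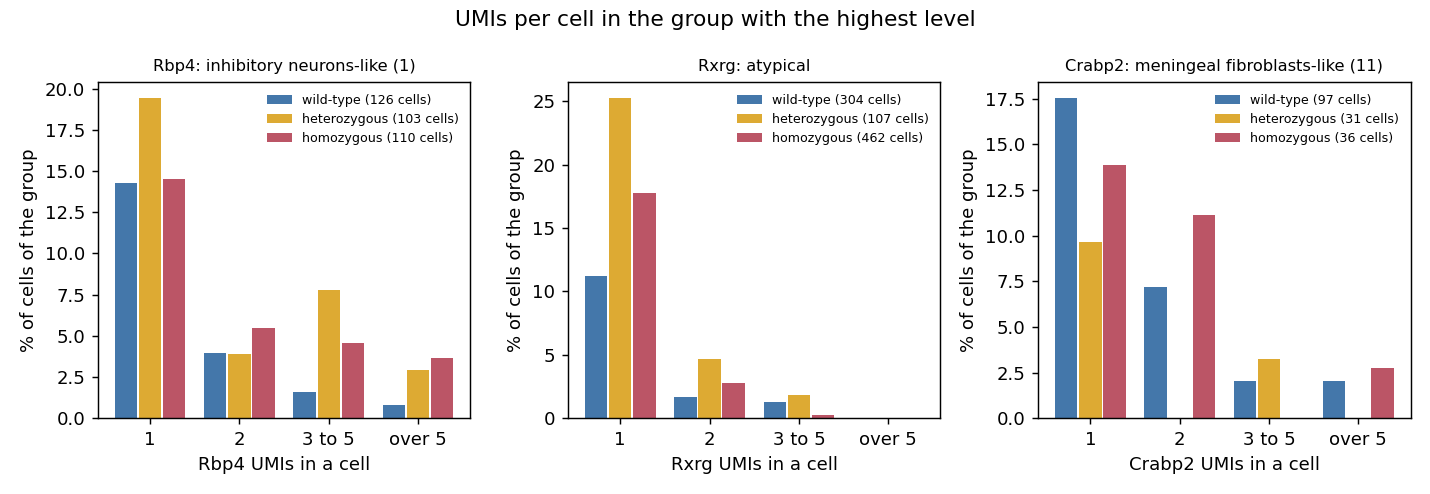
Percentage of the cells of a group (y axis) that held 1, 2, 3 to 5 or over 5 UMIs of *Rbp4* in cluster 1, *Rxrg* in atypical cells and *Crabp2* in cluster 11 (x axis), 1 bar per library. Wild-type cells of cluster 1 held at most 6 *Rbp4* UMIs and heterozygous cells up to 17, while atypical cells held at most 5 *Rxrg* UMIs.

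Inside the typical class, *Sst* was compared between cells with and without *Rbp4*. In the heterozygous library the 152 typical cells with *Rbp4* had 588 CPM of *Sst* against 162 CPM in the other 5205 cells (log2 ratio 1.86, 1.64 to 2.08), and in the homozygous library the 83 cells with *Rbp4* had 474 against 175 CPM (1.44, 1.04 to 1.81). In the wild-type library the 45 cells with *Rbp4* had 296 against 235 CPM (0.33, −0.26 to 0.86), with 0 inside the interval. At least 1 *Sst* UMI was in 31.6% (24.3 to 39.6%) of heterozygous cells with *Rbp4* and in 19.4% (18.3 to 20.5%) of those without, against 37.8% (23.8 to 53.5%) and 24.4% (22.3 to 26.4%) in wild-type and 25.3% (16.4 to 36.0%) and 16.1% (15 to 17.3%) in homozygous cells, where the intervals overlap. Cells with 10 or more *Sst* UMIs were 4 of the 152 and 10 of the 5205, and these 4 held 69 of the 188 *Sst* UMIs. In homozygous cells 2 of the 83 held 35 of the 62. In wild-type cells 0 of the 45 with *Rbp4* and 6 of the 1733 without it had 10 or more. Those 6 held 226 of the 841 *Sst* UMIs of the cells without *Rbp4*. Cells of 10 or more *Sst* UMIs were then left out on both sides, an alternative chosen after the values were seen. The log2 ratio was 0.77 (0.18 to 1.31) in wild-type, 1.40 (1.12 to 1.67) in heterozygous and 0.48 (−0.13 to 1.04) in homozygous cells. The homozygous interval then holds 0. The wild-type interval then excludes 0, where the cells left out were all among those without *Rbp4*. The list of 6 layer 5 markers did not separate typical cells with *Rbp4* from those without, with log2 ratios of −0.30, −0.17 and 0.31 in wild-type, heterozygous and homozygous cells and 0 inside each interval. Upper-layer markers were lower in cells with *Rbp4* in the heterozygous (−0.55, −0.95 to −0.18) and homozygous libraries (−0.55, −1.15 to −0.0027), and in wild-type cells the ratio was −0.25 (−0.99 to 0.40).

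*Crabp2* (ENSMUSG00000004885, chromosome 3, 87948666 to 87953376, plus strand) encodes a binding protein that delivers retinoic acid to its nuclear receptors. Typical neurons had 7, 6 and 4 UMIs in the wild-type, heterozygous and homozygous libraries, or 1.91, 0.576 and 0.658 CPM, and empty droplets had more, at 3.34, 4.81 and 3.14 CPM. The mural share of free RNA would carry 0.733, 0.575 and 0.507 CPM into typical cells. These values lie inside the heterozygous (0.211 to 1.25) and homozygous (0.179 to 1.69) intervals and just under the wild-type one (0.767 to 3.93). *Crabp2* was therefore at or near background in typical cells. Meningeal fibroblast-like cells (cluster 11, led by *Ptgds*, *Dcn*, *Col1a1* and *Slc6a13*) held 79 of its 129 UMIs and had 165 CPM (131 to 206). These UMIs were in 42 of 164 cells, and after thinning in 14.6% (9.61 to 21%), against 0.0903% of typical cells. By library the level was 164 CPM (123 to 215, 53 UMIs) in wild-type, 99.3 (39.9 to 205, 7 UMIs) in heterozygous and 224 (135 to 350, 19 UMIs) in homozygous cells. The 3 intervals overlap, and 1 cell carried 4 of the 7 heterozygous UMIs (log2 ratio over wild-type −0.73 with the richest cell of each library and −1.61 without). No other group of at least 50 cells exceeded 6.65 CPM.

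*Cyp26b1* (ENSMUSG00000063415, chromosome 6, 84571414 to 84593908, minus strand) encodes an enzyme that breaks down retinoic acid. Typical neurons had 59 UMIs in wild-type, 133 in heterozygous and 83 in homozygous cells, which is 16.1 (12.2 to 20.7), 12.8 (10.7 to 15.1) and 13.7 (10.9 to 16.9) CPM. The intervals overlap, and each level lies above its empty-droplet level of 6.54, 5.64 and 6.06 CPM. At the mural share of free RNA, 1.44, 0.673 and 0.980 CPM would be carried in. Excitatory neuron-like outside cells had 19.3 CPM (14.3 to 25.4, 50 UMIs), typical cells 13.6 (12.1 to 15.3), and the highest value, 25.1 CPM in meningeal fibroblast-like cells, rests on 12 UMIs in 6 cells (13 to 43.9). By the ratio of UMIs over the 3 libraries, excitatory neuron-like outside cells were above typical cells by a log2 ratio of 0.50 (0.03 to 0.94), which rests on the heterozygous library (0.69, 0.11 to 1.25), with 0.32 (−0.76 to 1.26) in wild-type and −0.12 (−1.78 to 1.16) in homozygous cells. Meningeal fibroblast-like cells did not differ from typical cells beyond counting error over the 3 libraries (0.88, −0.09 to 1.71), with −0.37 (−2.30 to 1.06) in wild-type, 2.96 (1.62 to 4.04) in heterozygous and −0.21 (−5.53 to 2.31) in homozygous cells, and 1 cell held 6 of the 12 UMIs. The 9 UMIs in inhibitory cluster 1 (7.30 CPM, 3.34 to 13.9) and 6 UMIs in cluster 8 were fewer. Thinned to 1000 UMIs, 1.37% (1.16 to 1.61%) of typical cells held *Cyp26b1*, against 0.714% (0.0181 to 3.92%, 1 of 140) of microglia-like cells, whose wide interval holds the typical share. At full depth the shares were 2.44 and 1.43%, at medians of 1662.5 and 2618 UMIs per cell. Typical cells with *Cyp26b1* had lower levels of the upper-layer markers, with log2 ratios of −0.95 (−1.77 to −0.24) in wild-type and −0.75 (−1.34 to −0.21) in homozygous cells, and −0.35 (−0.74 to 0.02) in heterozygous cells. Layer 5 and layer 6 lists had intervals with 0 in all 3 libraries.

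**Figure D3:**
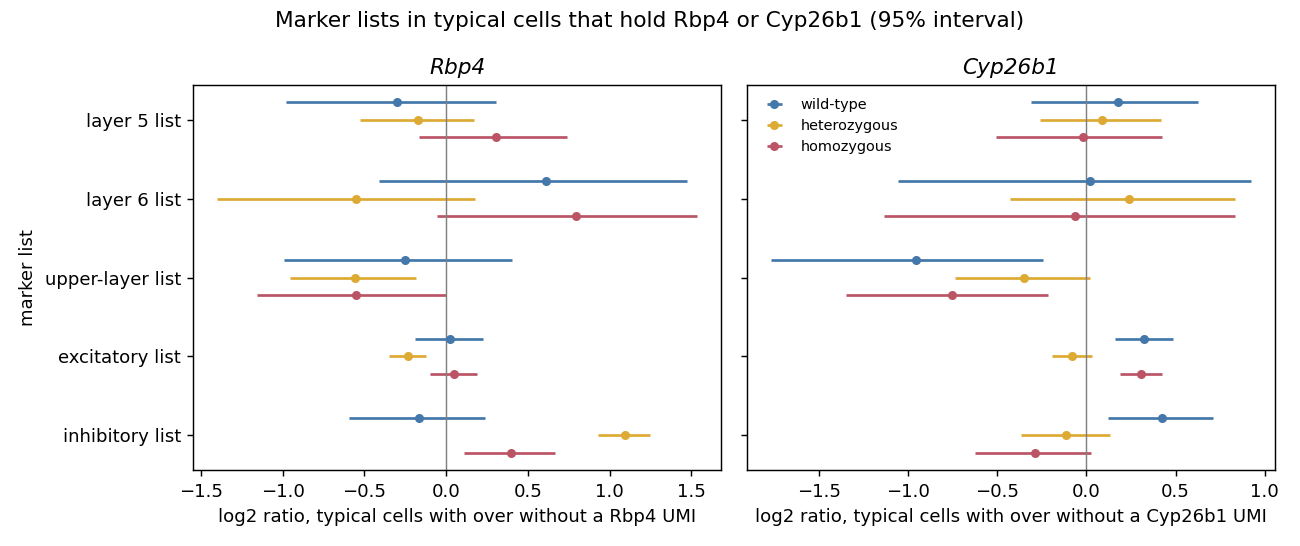
Log2 ratio of the summed level of 5 marker lists in typical cells with a UMI of *Rbp4* (left) or *Cyp26b1* (right) over those without one, with 95% intervals, 1 point per library. The inhibitory list is at 1.09 in heterozygous cells with *Rbp4*, and the upper-layer point lies below 0 for both genes in every library, with 0 inside the interval for *Rbp4* in wild-type and *Cyp26b1* in heterozygous cells.

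*Rxrg* (ENSMUSG00000015843, chromosome 1, 167598384 to 167639623, plus strand) encodes RXRγ, one of the partners with which RARs bind DNA. In atypical cells it had 56 UMIs in wild-type, 45 in heterozygous and 111 in homozygous cells, or 82.9 (62.6 to 108), 208 (152 to 278) and 149 (123 to 179) CPM. Typical cells had 5.18 (3.12 to 8.08), 4.90 (3.64 to 6.44) and 8.56 (6.39 to 11.2) CPM, below the 14.1, 13.9 and 22 CPM of empty droplets. They were above the 3.09, 1.65 and 3.55 CPM that the mural share of free RNA would carry in. At the 38.8% share by blood markers, wild-type typical cells are not shown to lie above the carried-in level. *Rxrg* was in 12.3% (10.2 to 14.6%) of thinned atypical cells, in 0.659% (0.517 to 0.828%) of typical ones and in 0.714% (0.0181 to 3.92%, 1 of 140) of microglia-like ones, too few to set a background level. At full depth the shares were 19.8, 1.10 and 2.14%. The atypical levels of the mutant libraries lie above the wild-type interval, with log2 ratios of 1.33 (0.73 to 1.92) for heterozygous and 0.85 (0.37 to 1.34) for homozygous over wild-type. Among these atypical cells the list of striatal markers was at 357, 495 and 580 CPM and the excitatory list at 571, 2414 and 1176 CPM in wild-type, heterozygous and homozygous cells, so the class itself differed in content between libraries, and the part of this in the *Rxrg* values was not tested. Inhibitory cluster 1 followed with 33.3 CPM (23.9 to 45.1), and its 41 UMIs were in 17 cells, of which 9 held at least 2.

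*Rarb* (ENSMUSG00000017491, chromosome 14, 16430839 to 16819156, minus strand) encodes RARβ, a receptor whose own gene is a classical target of retinoic acid. Atypical cells had 24, 8 and 25 UMIs, or 35.5 (22.8 to 52.8), 37.0 (16.0 to 72.9) and 33.6 (21.7 to 49.5) CPM in wild-type, heterozygous and homozygous cells, with no separation between the libraries. Meningeal fibroblast-like cells had 41.9 CPM (25.6 to 64.7, 20 UMIs), with a log2 ratio of 0.27 (−0.55 to 1.02) over atypical cells, and cluster 1 and mural-like cells came after at 16.2 (9.91 to 25.1) and 15.4 (4.98 to 35.8) CPM. Typical cells had 11, 9 and 22 UMIs, or 3.0 (1.5 to 5.36), 0.864 (0.395 to 1.64) and 3.62 (2.27 to 5.48) CPM. Empty droplets had 5.47, 2.0 and 4.02 CPM, of which the mural share of free RNA would carry in 1.2, 0.238 and 0.649 CPM. The heterozygous library was the lowest of the 3 in typical cells and in empty droplets alike, and the part of free RNA in this was not tested. The last 4624 bases of *Rarb* overlap *Top2b* on the other strand, with 1793 exon bases shared, and the sources used here do not state whether counting used the strand. *Top2b*, a topoisomerase gene, had 45.4 CPM (42.5 to 48.5) in typical and 60.5 CPM (49.1 to 73.6) in atypical cells. Over outside cells as a whole *Top2b* was at 90.4 CPM (85.8 to 95.3) and *Rarb* at 4.49 CPM (3.50 to 5.67). The part of *Top2b* reads in the *Rarb* counts was not tested. Wild-type atypical cells that held *Rarb* had more *Sst* than the others (682 against 252 CPM, log2 ratio 1.44, 0.90 to 1.94) and more *Npy* (665 against 302 CPM, 1.14, 0.61 to 1.64). In homozygous atypical cells these ratios were 0.19 (−1.16 to 1.29) and 0.15 (−0.60 to 0.82). The striatal list was higher with *Rarb* in the wild-type and homozygous libraries, by 0.85 (0.29 to 1.36) and 0.58 (0.05 to 1.08). The heterozygous library had 6 atypical cells with *Rarb*, under the minimum of 20 cells, and was left out.

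*Rara* (ENSMUSG00000037992, chromosome 11, 98927818 to 98974942, plus strand) encodes RARα. It had 19, 77 and 51 UMIs in typical cells, or 5.18 (3.12 to 8.08), 7.39 (5.83 to 9.24) and 8.40 (6.25 to 11) CPM. Empty-droplet levels were 5.34, 7.52 and 7.08 CPM. The mural share of free RNA would carry 1.17, 0.898 and 1.14 CPM of this into typical cells, below each interval. Endothelial-like cells had 20.4 CPM (14.4 to 28.0, 38 UMIs), with log2 ratios over typical cells of 2.03 (1.10 to 2.98) in wild-type, 1.65 (0.29 to 2.76) in heterozygous and 0.98 (−0.40 to 2.13) in homozygous cells, while the 25.5 CPM of a *Gfap*+ *Aqp4*+ astrocyte-like cluster rests on 10 UMIs (12.2 to 47.0). *Rxra* (ENSMUSG00000015846, chromosome 2, 27676440 to 27762957, plus strand), which encodes RXRα, had the fewest UMIs of the 7 over all filtered cells, at 55. It had 3, 8 and 5 UMIs in typical cells, or 0.817, 0.768 and 0.823 CPM. *Crabp2* counts were smaller still in typical cells of both mutant libraries, with 6 UMIs in heterozygous and 4 in homozygous cells. The largest *Rxra* count outside the neurons was 12 UMIs in endothelial-like cells (6.45 CPM, 3.33 to 11.3), and the 10.5 CPM of meningeal fibroblast-like cells rests on 5 UMIs. With a clustering resolution of 0.3 in place of 0.5, *Rxra* was highest in endothelial-like cells instead, at 6.57 CPM.

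**Figure D4:**
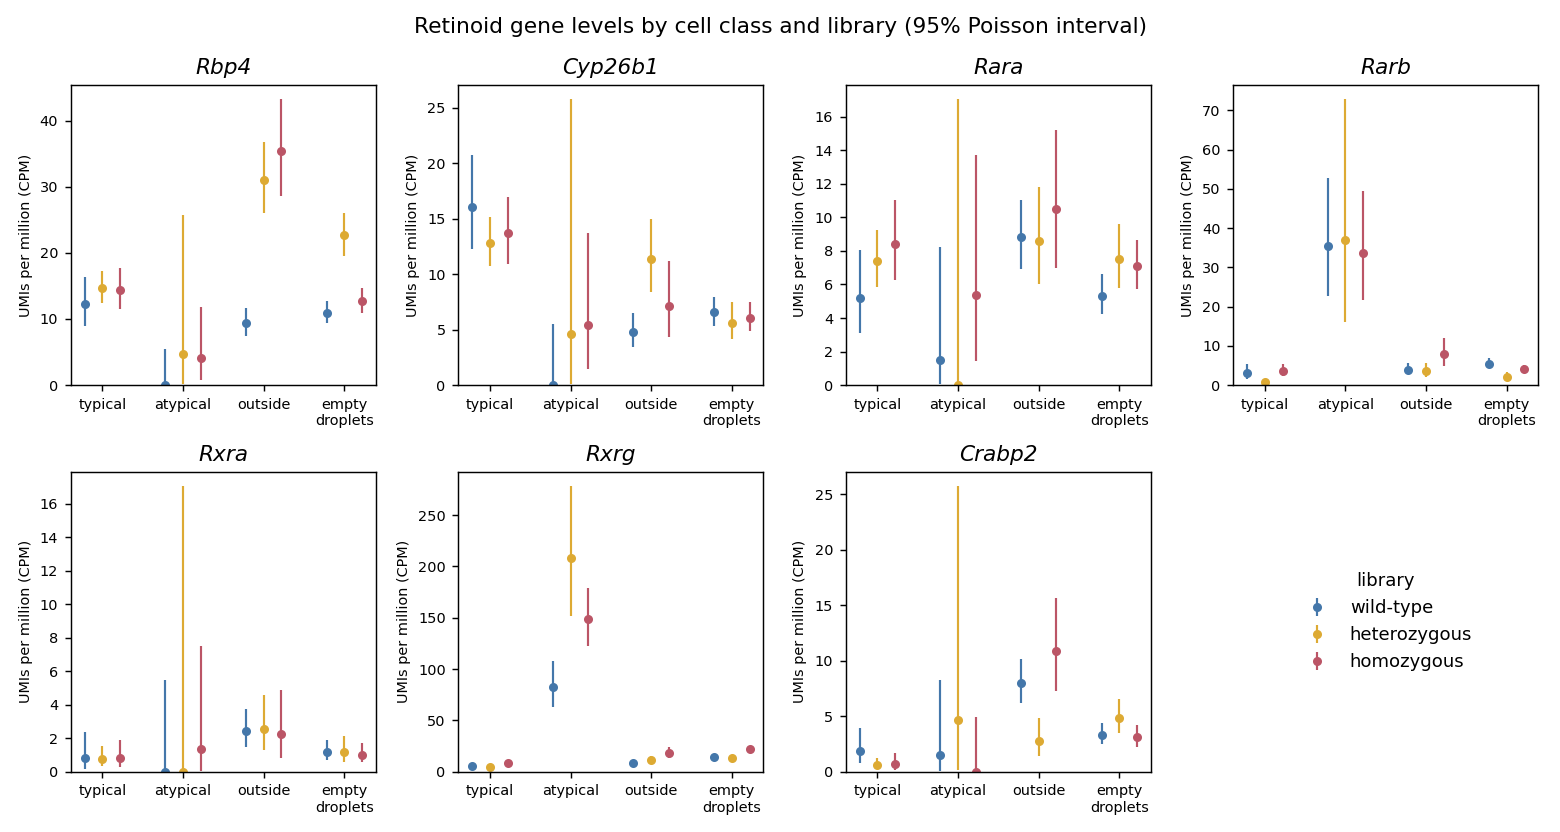
Level of each gene (CPM, y axis, 95% Poisson interval) in typical, atypical and outside cells and in empty droplets, 1 point per library. *Rxrg* and *Rarb* stand high in atypical cells of all 3 libraries, and *Rbp4* is at 9.40 CPM in wild-type outside cells but at 31.0 and 35.3 CPM in the mutant libraries.

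The 3 genotypes were compared in typical neurons, and the 3 comparisons share libraries. A member entered a comparison when it had at least 20 UMIs over both libraries, which 5 of the 7 did each time, and *Rxra* and *Crabp2* did not. For homozygous over wild-type, 0 of the 5 ratios reached 2-fold (4.31% of the 10847 genes tested) and 0 had an interval without 0 (22.6%). The log2 ratios were 0.22 for *Rbp4*, −0.23 for *Cyp26b1*, 0.27 for *Rarb*, 0.70 (−0.09 to 1.54) for *Rara* and 0.73 (−0.06 to 1.57) for *Rxrg*. For heterozygous over wild-type, *Rarb* alone was past 2-fold and had an interval without 0, resting on 9 against 11 UMIs (log2 ratio −1.79, −3.24 to −0.39), 1 of 5 beside 5.34% of all genes for the fold and 24.7% for the interval. For homozygous over heterozygous, *Rarb* (2.07, 0.89 to 3.37) and *Rxrg* (0.81, 0.22 to 1.39) had intervals without 0, 2 of 5 beside 14.1% of all genes, and *Rarb* alone was past 2-fold (2.66% of all genes). With the empty-droplet profile subtracted, *Rarb* was at −1.70 (−3.62 to 0.23) for heterozygous over wild-type and at 2.32 (0.82 to 3.81) for homozygous over heterozygous. *Rxrg* was at 0.70 (−0.20 to 1.60) for the latter. These intervals are normal approximations, so a change of interval method is mixed with the subtraction. *Cyp26b1* differed by less than the counting error in each pair of libraries, with intervals of −0.73 to 0.27, −0.79 to 0.14 and −0.32 to 0.50.

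**Figure D5:**
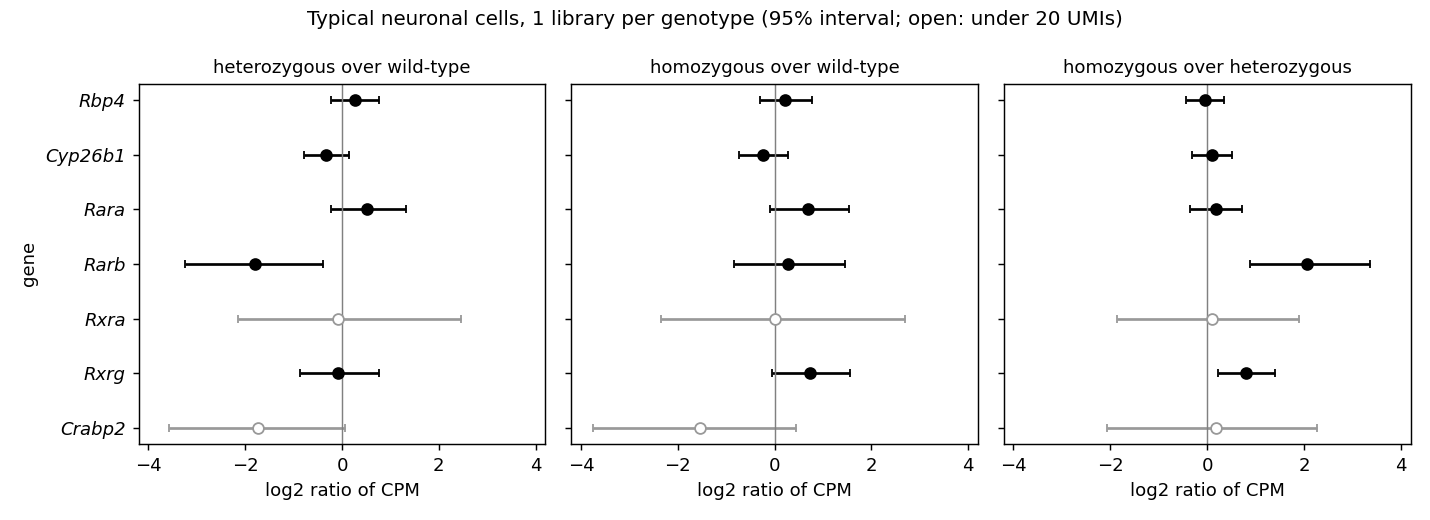
Log2 ratio of CPM between libraries in typical neuronal cells for the 7 genes, with 95% conditional binomial intervals, and open symbols for genes under 20 UMIs. *Rarb* lies below 0 for heterozygous over wild-type (−1.79) and above 0 for homozygous over heterozygous (2.07), and no interval of the homozygous over wild-type panel excludes 0.

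Between cell classes within a library the ratios were larger. Atypical over typical, 4 of 5 genes had an interval without 0 in the wild-type library (17.8% of all genes), 1 of 4 in the heterozygous (8.57%) and 3 of 5 in the homozygous library (15.7%). By fitted ratios 5, 4 and 4 genes were at least 2-fold apart, beside 13.6, 36.5 and 15.3% of all genes. The lower ones among them, 3, 3 and 2 genes, had at most 4 UMIs in atypical cells, and in the heterozygous library, where they had 0 or 1 UMI, none of the 3 is shown to be lower. *Rxrg* was higher in atypical cells by log2 ratios of 4.0 (3.23 to 4.83), 5.41 (4.80 to 6.02) and 4.12 (3.63 to 4.63), and *Rarb* by 3.57 (2.48 to 4.74) and 3.21 (2.33 to 4.11) in wild-type and homozygous cells, and in the heterozygous library, under the minimum with 8 against 9 UMIs, the ratio was 5.42 (3.85 to 6.97). *Rbp4* and *Cyp26b1* had no UMI in wild-type atypical cells. With a floor of 3 UMIs in place of 0, they were 2.76-fold and 3.62-fold lower than in typical cells. The upper limits of the log2 ratio, −1.11 and −1.51, allow smaller differences than these. In the homozygous library *Rbp4* had 3 UMIs in atypical cells (−1.83, −4.14 to −0.24). The atypical cells also held striatal markers such as *Ppp1r1b*, which encodes the dopamine-regulated phosphoprotein DARPP-32, at 170, 240 and 290 CPM in the 3 libraries. The log2 ratio of the striatal list in atypical cells with *Rxrg* over those without was 0.47 (−0.01 to 0.93) in wild-type, 0.63 (0.05 to 1.21) in heterozygous and 0.07 (−0.27 to 0.40) in homozygous cells.

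Outside over typical, 4 of 7 genes had an interval without 0 in the wild-type library (73.6% of all genes), 3 of 5 in the heterozygous (56.6%) and 5 of 6 in the homozygous library (62.1%). At least 2-fold apart were 3, 3 and 4 genes, beside 47.7, 26.9 and 36% of all genes. The median log2 ratio over all genes tested was 0.82, 0.43 and 0.57 in that order, so a gene at 0 stood below most genes. *Cyp26b1* was the lowest of the 7 in each library, at −1.76 (−2.37 to −1.16), −0.17 (−0.67 to 0.31) and −0.94 (−1.74 to −0.20). *Crabp2* was the highest of the 7 in each library, at 2.07 (0.95 to 3.44), 2.27 (0.75 to 3.97) and 4.05 (2.54 to 6.02), with the heterozygous value from 12 against 6 UMIs, under the minimum of 20. *Rbp4* was at −0.38 (−0.93 to 0.18), 1.08 (0.73 to 1.42) and 1.30 (0.87 to 1.74). Cluster 1 held 50.6, 64.9 and 78.7% of the outside *Rbp4* UMIs while it made up 4.39, 7.37 and 9.31% of outside cells in wild-type, heterozygous and homozygous libraries. Without cluster 1 the *Rbp4* ratios were −1.33, −0.29 and −0.70, and without cluster 11 the *Crabp2* ratios were 0.02, 1.03 and 2.56, both chosen after the values were seen.

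Other genes of the retinoid pathway were taken from a list of 41, of which 32 are in the table. In typical neurons, by their intervals, 2 of the 22 that passed the minimum were higher and 5 lower in homozygous than in wild-type cells, beside 13.6 and 8.99% of all genes. In heterozygous against wild-type cells 1 of 24 was higher and 7 lower (13.4 and 11.3% of all genes), and in homozygous against heterozygous cells 8 of 26 were higher and 2 lower (8.29 and 5.81%). *Crabp1*, the other cellular retinoic acid-binding protein gene, was at 6.27, 1.73 and 7.08 CPM in wild-type, heterozygous and homozygous typical cells, lowest in the heterozygous library like *Rarb*. Atypical cells had more *Crabp1*, at 54.7, 106 and 92.6 CPM. The retinoic acid target *Meis2* was also higher in atypical than in typical cells, by log2 ratios of 1.45 (1.17 to 1.72), 0.93 (0.20 to 1.57) and 1.30 (0.98 to 1.62). The list as a whole was mixed in this contrast. By their intervals, 4 of 21 genes were higher and 1 lower in wild-type cells. In heterozygous cells 5 of 22 were higher and 0 lower, and in homozygous cells 3 of 21 were higher and 4 lower. Either direction was reached by 17.8, 8.57 and 15.7% of all genes.

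*Aldh1a2*, which encodes the main embryonic retinoic acid-synthesizing enzyme, had 92 of its UMIs (78.0%) in meningeal fibroblast-like cells and 193 CPM there (155 to 236), the group that also led for *Crabp2*. Those cells had the most *Aldh1a1* (54.5 CPM) and *Stra6* (88.0 CPM, 63.4 to 119), the gene of a cell-surface RBP4 receptor, although endothelial-like cells held 63.8% of *Stra6* UMIs at a level that did not differ beyond counting error (83.3 CPM, 70.7 to 97.5). *Adh1*, an alcohol dehydrogenase gene, had 22 of its UMIs in endothelial-like cells (91.7%). *Rarg*, the remaining RAR gene, was at 36.8 CPM (19 to 64.4) in mural-like, 23 CPM in meningeal fibroblast-like and 18.3 CPM (12.6 to 25.5) in endothelial-like cells, and *Rxrb*, the remaining RXR gene, at 49.1 CPM in mural-like cells. *Dhrs3*, whose enzyme returns retinaldehyde to retinol, was highest in border macrophage-like cells at 228 CPM (186 to 277), and *Fabp5* in the *Gfap*+ *Aqp4*+ astrocyte-like cluster at 3567 CPM.

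Likeness of pattern was measured by Pearson's r of log2(CPM + 10) over the 19 cell groups against 12989 genes, a description over groups that share libraries. The genes most like *Rbp4* were *Slitrk4* (0.92), *Cntn3* (0.91) and *Tac2* (0.90). Those most like *Rxrg* were *Pdyn* (0.93), *Strip2* (0.90) and *4632428C04Rik* (0.85). *Crabp2* ran with *Slc6a13* (0.99), *Wnt6* (0.97) and *Slc22a6* (0.96), *Rxra* with *Copz2* (0.88), *Angpt2* (0.86) and *Mdfi* (0.86), and *Cyp26b1* with *Cacna1i* (0.86), *Runx2os1* (0.79) and *Grp* (0.72). *Rarb* was most like *Plekhh2* (0.76), *Hs6st2* (0.74) and *Slc5a5* (0.74), and *Rara* most like *Mtmr3* (0.74), *Uty* (0.74) and *Aspa* (0.73). Several of these matches were sparse beside the 10 CPM added before the log. In their highest groups *Cacna1i* reached 12.1, *Cntn3* 12.2, *Strip2* 12.2, *Runx2os1* 10.5, *Pdyn* 9.77 and *4632428C04Rik* 5.50 CPM, so their r values are limited by depth.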

How the data were processed

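tdTomato+ cells of the P5 mPFC were profiled by droplet 3′ RNA-seq (10X, v2 chemistry), 1 library per genotype. UMI counts were made by the authors with Cell Ranger 2.0.1 on mm10 and deposited for every barcode and for filtered cells, the latter after the authors' limits of 500 to 10000 UMIs, 500 to 3000 genes and 30% mitochondrial UMIs.

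The mitochondrial limit was applied by the authors to the fraction of a cell's UMIs. A neuronal table deposited as natural log values was used only for its gene names. Typical and atypical classes follow the deposited lists. Raw counts were summed per class and library. Ratios carry exact conditional binomial 95% intervals and shares exact binomial ones, which cover counting error only. Ratios with the empty-droplet profile subtracted carry normal-approximation 95% intervals instead. On simulated counts of 8364 genes for homozygous over wild-type, 200 of 200 changed genes kept their sign. These genes had at least 20 UMIs in wild-type typical cells, which only *Rbp4* and *Cyp26b1* of the 7 members reached. The sparser members are therefore not covered by this simulation. Outside cells were clustered in scanpy with Leiden (resolution 0.5, 2000 variable genes, 20 components). No doublet caller was run. Genes and lists were chosen with earlier results of these data known. The genes named are the 7 members, markers, the pathway list and the 3 most alike by r. Comparisons within clusters, the 2-fold count and the splits of the outside cells by cluster were chosen after seeing the data.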

Additional observations from a re-analysis of the deposited data

How the results depend on the processing

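Counts of members whose interval excludes 0 depended on several choices. Homozygous over wild-type went from 0 to 1 with mean raw UMIs per cell and to 2 with atypical cells included. Heterozygous over wild-type went from 1 to 0 with every cell thinned to 1000 UMIs or the empty-droplet profile subtracted, and to 2 with atypical cells included. Homozygous over heterozygous went from 2 to 1 with mean raw UMIs per cell, thinning, subtraction or a 2-fold rule. Outside over typical went from 4 to 2 in wild-type cells with the neuronal genes as denominator or thinning, from 3 to 1 in heterozygous cells with thinning and to 0 without cluster 1, and from 5 to 3 in homozygous cells with median-of-ratios scaling, without the 5% of cells with the most UMIs or without cluster 1. Atypical over typical went from 4 to 2 in wild-type cells with the mean of UMIs per 10000 or subtraction. The calls lost are *Rbp4* and *Cyp26b1*, with 0 UMIs in those atypical cells. Neither setting gives a usable interval for a count of 0, so this change says nothing about their levels. Counts under subtraction rest on normal-approximation intervals. In heterozygous cells atypical over typical went from 1 to 4 with a 2-fold rule, where genes of 0 or 1 UMI pass. The cause of the other changes was not tested. *Rara* and *Rxrg* outside over typical in wild-type cells reversed under median-of-ratios scaling, to −0.0087 each, and *Rbp4* reversed without cluster 1, to −0.29 in heterozygous and −0.70 in homozygous cells. The other 71 counts stayed within 1.5 times, and 498 of the single-gene values recomputed stayed within their 95% interval or close to their value, while 37 moved further. No paired analysis was possible because each genotype has 1 library. With 3 to 22 UMIs per library in typical cells, *Rarb*, *Rxra* and *Crabp2* are limited by depth.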
